A study of Drosophila melanogaster with 2 samples.

Results

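Castor is a zinc-finger transcription factor that neural stem cells of the Drosophila nerve cord make late in their temporal series. Its occupancy was mapped by chromatin immunoprecipitation and sequencing (ChIP-seq) in whole embryos of 0 to 24 hours, from the transgenic strain cas-GFP, which makes a cas-eGFP fusion of castor with enhanced green fluorescent protein, with an antibody against the tag. The 2 biological replicates form a single group, so no treatment or genotype is compared, and tissues and stages are averaged in every value. Input and mock libraries were not analysed here. The report describes the ranked peak entries on chromosome 4, chosen only by their chromosome: 156 of the 105251 entries of the list that combines both replicates. Replicate 1 alone had 368 chromosome 4 entries of 58485, and replicate 2 alone had 127 of 89597. The rest of the genome is given as the 5 large arms 2L, 2R, 3L, 3R and X, which hold 104379 entries of the combined list. The cas gene itself lies on 3R.

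Chromosome 4, the dot chromosome, is the smallest chromosome of Drosophila melanogaster. It is rich in repeats and carries heterochromatin marks such as HP1a along its length, while most of its genes are nonetheless expressed; a dedicated protein, POF, binds it almost exclusively. Its genes include the Pax6 homologues ey and toy, the Hedgehog effector ci and the Wnt effectors pan and lgs, together with many genes of the nervous system.

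A ranked entry is a candidate peak, and most entries fall short of the authors' reproducibility threshold. Each carries the authors' signal value, taken here as peak height although its definition was not given. Each also carries a -log10 irreproducible discovery rate (IDR), which is high where a peak ranks near the top in both sets of a pair of peak sets. A value of at least 2 was counted as past the threshold. Over all entries, 1.85% passed in the combined list, 2.22% in replicate 1 and 1.38% in replicate 2. A second combined list, called the pooled list here, had 256 chromosome 4 entries of 129456 and 1.81% of all its entries past the threshold. The authors' own thresholded lists are slightly shorter. They hold 1880 peaks, against 1951 entries past the threshold in the combined list, and 1248, against 1297, in replicate 1. In replicate 2 they hold 1158, against 1234, and in the pooled list 2237, against 2340.

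Thresholded peaks of any list occurred at 5 places on chromosome 4. The bases around their summits are shown because only these places on the chromosome entered a thresholded list. They were read from the RefSeq Release 6 genome (dm6), plus strand, 5′ to 3′, centred on the summit; capitals mark a match to GAGAG or its reverse complement CTCTC.

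PlexA promoter, chr4:1027231-1027331: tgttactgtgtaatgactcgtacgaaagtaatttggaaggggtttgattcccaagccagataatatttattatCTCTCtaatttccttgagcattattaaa

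Sox102F promoter, chr4:807428-807528: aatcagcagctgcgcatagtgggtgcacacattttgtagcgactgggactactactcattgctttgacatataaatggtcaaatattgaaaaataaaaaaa

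Upstream of zfh2, chr4:497900-498000: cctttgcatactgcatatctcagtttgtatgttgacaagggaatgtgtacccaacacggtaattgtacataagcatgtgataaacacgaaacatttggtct

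Between dati and lgs, chr4:424772-424872: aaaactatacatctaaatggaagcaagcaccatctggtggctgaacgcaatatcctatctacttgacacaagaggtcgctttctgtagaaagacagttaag

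The fifth summit lies in a 3′ UTR shared by the converging genes sv and Cals, and only its central bases are shown.

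sv and Cals 3′ UTR, chr4:1113302-1113330: ctctgaataccctttcaaaaactgctgca

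The PlexA summit with 50 bases on either side held 32.7% G and C, the window at Sox102F 36.6%, that upstream of zfh2 38.6% and that between dati and lgs 40.6%. The window at the sv and Cals summit held 25.7%, of which 29 bases are printed. Chromosome 4 as a whole held 35.2%. GAGAG, searched on both strands, occurred in 9.25% of all windows of that length on chromosome 4, and the word TATCGA, which is in none of the stretches shown, in 5.41%.

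The promoter of PlexA (FBgn0025741, minus strand), which encodes a semaphorin receptor of growing axons, carried the highest chromosome 4 entry. Its entry at chr4:1027259-1027336 had its summit 180 bp upstream of the nearest start. The signal value was 57.8 in replicate 1 and 86.9 in replicate 2, against 144 in the combined list, where the entry ranked 299 of all entries. Its -log10 IDR was 3.71 in replicate 1, 4.86 in replicate 2 and 4.65 in the combined list. It was the only place on the chromosome that was thresholded in all 4 lists. The next highest member had a combined signal 0.428 times as high.

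At a promoter of Sox102F (FBgn0039938, minus strand), a SoxD-type transcription factor gene, the entry at chr4:807323-807632 had signal values of 20.7 in replicate 1, 35.2 in replicate 2 and 61.5 in the combined list. Its summit at 807478 lay 131 bp upstream of the nearest start, which is internal to the gene: Sox102F spans 800436 to 834393. Replicate 2 passed the threshold there with a -log10 IDR of 2.13, as did the pooled list with 2.38, whereas replicate 1 reached 0.558 and the combined list 1.90. The entry at chr4:497795-498104 lay 3860 bp upstream of zfh2 (FBgn0004607, plus strand), which encodes a zinc-finger and homeodomain transcription factor. It went the other way: its signal value was 47.4 in replicate 1, at rank 747, and 15.9 in replicate 2, at rank 17496, against 59.8 in the combined list. Of the single replicates, only replicate 1 passed there, with a -log10 IDR of 3.05; the pooled list passed with 2.63, and the combined list reached 0.733.

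The remaining thresholded places had an entry in replicate 1 and none in replicate 2. An entry at chr4:424670-424973, 19089 bp downstream of the nearest start of lgs, had a signal value of 39.9 and a -log10 IDR of 2.47 in replicate 1 and no counterpart in replicate 2 or either combined list. The entry at chr4:1113164-1113467, at the shared 3′ ends of sv, a Pax2-type transcription factor gene, and Cals, which encodes calsyntenin, had a signal value of 30.7 and a -log10 IDR of 2.23 in replicate 1. It had no entry in replicate 2 or in the combined list. In the pooled list, where it was also thresholded, its signal was 82.7 and its -log10 IDR 3.12.

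Past the threshold was 1 of the 156 combined entries (0.641%, exact Clopper-Pearson 95% interval 0.0162 to 3.52), against 1.79% to 1.96% on the large arms. In replicate 1 it was 4 of 368 (1.09%, interval 0.297 to 2.76), against 2.13% to 2.49% on the large arms. In replicate 2 it was 2 of 127 (1.57%, interval 0.191 to 5.57), against 1.21% to 1.51% on the large arms. The pooled list had 5 of 256 (1.95%), of which 4 were in its thresholded list, against 1.74% to 1.96% on the large arms. Each chromosome 4 interval given here includes the background share of its list, so per entry no departure was detectable with counts this small. All intervals cover counting error only.

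The 15 strongest members had combined signals from 144 down to 30.2, and the next member had 30.16. Of these, 7 summits lay at promoters, 3 in coding exons, 3 between genes, 1 in an intron and 1 in a 5′ UTR, and 0 lay in an annotated transposable element. Promoter here means within 500 bp of a transcript start. Entries of both replicates overlapped 11 of the 15, with a median log2 ratio of replicate 1 to replicate 2 signal of 0.43 and an SD of 0.79. Signals were higher in replicate 1 for 7 of them and in replicate 2 for 4. A member without a counterpart in a replicate overlapped no entry of the ranked list of that replicate alone.

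After PlexA, Sox102F and zfh2 came the promoter of Gyf, which encodes a GYF-domain protein. Its summit at 93 bp upstream of the start had 25.8 in replicate 1, 15.7 in replicate 2 and 42.8 combined. The single coding exon member of fd102C, a forkhead-domain transcription factor gene, had 22.9 in replicate 1, 16.98 in replicate 2 and 40.1 combined. At the start of lgs, the Drosophila BCL9 homologue and a cofactor of Wnt signalling, the summit 4 bp into the transcript had 24.5 in replicate 1, 16.9 in replicate 2 and 39.5 combined. These places were higher in replicate 1. In contrast, the 5′ UTR member of unc-13, a synaptic vesicle priming gene, had 9.34 in replicate 1, 19.5 in replicate 2 and 30.2 combined.

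The upstream side of dati, a zinc-finger gene, held 3 of the 15 strongest members. At 925 bp upstream the signal was 16.5 in replicate 1, 19.9 in replicate 2 and 42.1 combined. At 9416 bp upstream it was 19.5 in replicate 1, 11.5 in replicate 2 and 31.0 combined. The third, 5542 bp upstream and at the start of another annotated transcript, had 26.9 in replicate 2, 35.3 combined and no counterpart in replicate 1. In the whole interval of 41.4 kb from dati to lgs lay 21 members, with combined signals from 3.84 to 42.1 and a median of 19.0. Of these, 9 overlapped a replicate 1 entry and 11 a replicate 2 entry.

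Other members among the 15 lay at 2 transcript starts of CG11076 and in or near CG1909, Gyf and 4E-T. The CG11076 member with its summit 178 bp into a transcript had 26.2 in replicate 1, 17.5 in replicate 2 and 39.8 combined. The member 20 bp into CG11076, which also lies in ATPsynbeta, a mitochondrial ATP synthase subunit gene, had 17.8 in replicate 2, 30.3 combined and no replicate 1 counterpart. A coding exon of CG1909 had 19.0 in replicate 1, 14.4 in replicate 2 and 32.1 combined. A coding exon of Gyf had 21.2 in replicate 1 and 30.9 combined, and an intron of a non-coding transcript near 4E-T had 23.1 in replicate 1 and 35.4 combined; neither had a replicate 2 counterpart.

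**Figure D1:**
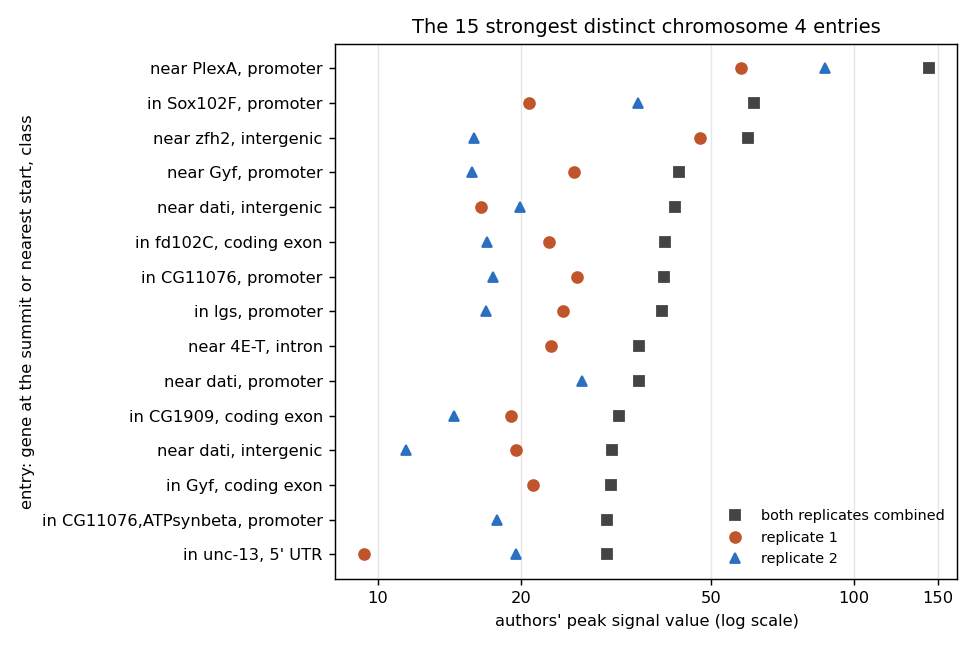
Signal values of the 15 strongest distinct chromosome 4 entries (x axis, log scale; squares combined list, circles replicate 1, triangles replicate 2), ordered by combined signal from the top. PlexA stands at 144 in the combined list, while the others lie between 30.2 and 61.5; a missing circle or triangle means no overlapping entry in that replicate.

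Across all 156 members the combined signal ran from 2.77 to 144, with quartiles of 11.8 and 24.4 and a median of 16.6, against medians of 14.9 to 17.01 on the large arms. In replicate 1 the median was 11.1 on chromosome 4, against 10.7 to 11.7 on the large arms, and in replicate 2 it was 12.1, against 10.1 to 11.2. The upper 10% of the combined list by signal held 13 members (8.33%, interval 4.51 to 13.8), against 6.77% to 11.0% of the entries of the large arms. In the combined list and replicate 1, signals on chromosome 4 were therefore about as high as elsewhere. In replicate 2 the median lay above that of every large arm. The upper 10% there held 13.4% of the chromosome 4 entries (interval 7.995 to 20.6), against 7.28% to 10.7% on the large arms. The pooled list had a median of 16.9, against 13.8 to 15.8, and 13.7% (interval 9.71 to 18.5), against 6.45% to 11.1%. Of the 156 members, 86 (55.1%) sat at the lowest -log10 IDR of the list, 0.0447, against 43.5% to 56.1% of entries on the large arms. All but 1 were 310 bp wide; the PlexA entry was 78 bp wide.

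Chromosome 4 was sparse in entries. The combined list held 117 per Mb of called bases on chromosome 4, against 762 to 828 per Mb on the large arms, a ratio of 0.149 to their joint density. Replicate 1 had 276 per Mb on chromosome 4, against 380 to 459 on the large arms, a ratio of 0.631. Replicate 2 had 95.4 per Mb, against 585 to 719, a ratio of 0.143. Each list was thus lower on chromosome 4 than on every large arm, but the replicates differed in the size of the deficit. Chromosome 4 holds 0.971% of the called bases of the 7 arms, Y included. It held 34 of the 20000 highest entries of the combined list, 125 of those of replicate 1 and 37 of those of replicate 2, so lists of equal length differed in the same way.

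The 1 Mb at the centromere end of each large arm gives a nearer match in position. There the combined list held 164 entries per Mb over the 5 arms, with arms between 66.4 and 302, so that chromosome 4, at 117, lay within their range. Replicate 2 had 95.4 per Mb on chromosome 4, against 274 at the centromere ends (175 to 369), below each of them. Replicate 1 went the opposite way, with 276 per Mb on chromosome 4, against 55.8 at the centromere ends (13.1 to 105), above each of them. Of the 815 combined entries at the centromere ends, 0 passed the threshold, as did 0 of 278 in replicate 1 and 9 of 1366 in replicate 2. Mappability and read depth of these regions are not in the lists, and their part in the densities was not tested.

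**Figure D2:**
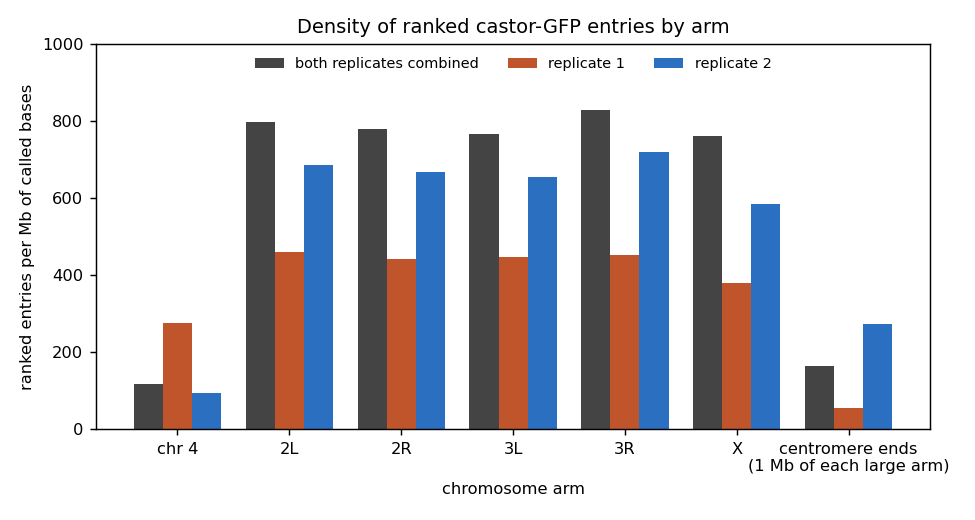
Ranked entries per Mb of called bases (y axis) for chromosome 4, each large arm and the 1 Mb centromere ends of the large arms together; dark bars are the combined list, orange replicate 1 and blue replicate 2. On chromosome 4 the orange bar (276) exceeds the blue one (95.4), while on each large arm the blue bar is the higher.

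The replicates shared few places on chromosome 4. Of the 368 replicate 1 entries, 45 overlapped a replicate 2 entry by at least 1 bp (12.2%, interval 9.06 to 16.02), against 53.1% to 60.5% on the large arms. Replicate 2 entries covered 2.55% of chromosome 4, against 15.5% to 19.1% of the large arms, so there was less to overlap. Of the 127 replicate 2 entries, 47 overlapped replicate 1 (37.0%, interval 28.6 to 46.0), against 35.8% to 41.4% on the large arms, where replicate 1 covered 11.3% to 13.6% of the bases and 8.20% of chromosome 4. Divided by that coverage, sharing was 4.80 times on chromosome 4 from replicate 1 to 2, against 3.13 to 3.42 on the large arms, and 4.51 from replicate 2 to 1, against 2.91 to 3.16. Over the overlapping chromosome 4 entries, Spearman's rho of the signals was 0.047 from replicate 1 (45 entries) and 0.10 from replicate 2 (47 entries), against 0.26 to 0.32 on the large arms.

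**Figure D3:**
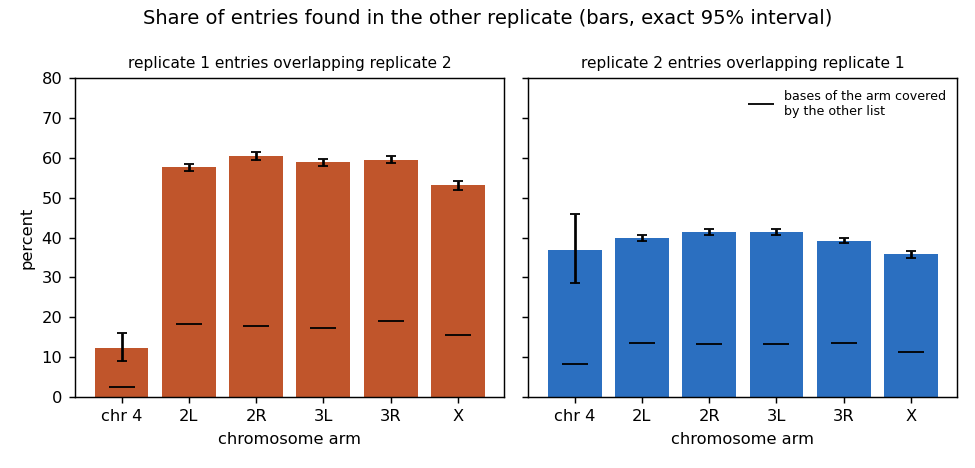
Share of the entries of one replicate that overlap an entry of the other (y axis, percent, bars with exact 95% intervals), by arm, from replicate 1 into 2 at left and from replicate 2 into 1 at right; short lines give the bases covered by the other list. Chromosome 4 stands low at left (12.2%) and among the arms at right (37.0%).

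Of the 156 members, 47 overlapped entries of both replicates, 28 of replicate 1 only, 39 of replicate 2 only and 42 of neither. These counts use the ranked lists of the single replicates. Each member also rests on a pair of peaks recorded with it in the combined list. Overlapping neither list therefore does not mean that no peak lay behind the member. Members overlapping both lists had a median combined signal of 24.9 and those overlapping neither 12.95. The strongest member overlapping neither, in a coding exon of unc-13, still reached 29.1. Among the 47, the median log2 ratio of replicate 1 to replicate 2 signal was -0.12 with an SD of 0.96. The signal was higher in replicate 1 for 23 and in replicate 2 for 24, so neither replicate was the higher as a rule.

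Unshared entries lay in transposable elements more often than shared ones in both replicates. The 323 replicate 1 entries without a replicate 2 partner had a median signal of 11.0, and 15.8% of their summits lay in transposable elements (interval 11.99 to 20.2). The 80 unshared replicate 2 entries had a median of 10.4 and 33.8% in transposable elements (27 summits, interval 23.6 to 45.2). A large part of these came from HeT-A, a telomeric retroelement with 14 replicate 2 entries. The interval takes summits as independent. Shared entries had 4.44% in replicate 1 (interval 0.543 to 15.1) and 4.26% in replicate 2 (interval 0.520 to 14.5), so in replicate 1 the intervals overlap.

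Most members lay in a few stretches of the chromosome. Of 14 consecutive bins of 100 kb, the last shorter, 4 had 0 members, and replicate 2 left 3 empty and replicate 1 left 0. On the large arms 6 of 1328 such bins were empty in the combined list, 21 in replicate 1 and 4 in replicate 2. The fullest bin, with ey and bt, held 40 members and 3 gene starts, whereas the bin with 11 gene starts held 0. These bins are neighbours: ey begins at 697689 in the empty bin, while its members began at 700257, just past the border. Starts were taken from annotated transcripts, so a gene can count in several bins. For ey, a further start lies in the fullest bin, 324 bp before the member summit at 704975. Over the 13 full-length bins, Spearman's rho between entries and gene starts was -0.47 for the combined list, 0.19 for replicate 1 and -0.55 for replicate 2, given as a description.

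The longest stretch without a member ran for 351 kb and held 24 whole protein-coding genes. It lies between PlexB, whose member at the border had signals of 14.05 in replicate 1 and 15.2 in replicate 2, and dati. Replicate 1 had 91 entries there with a median signal of 11.1 and a highest of 30.8, while replicate 2 had 2, with summits at 40085 and 391064, beside the borders of the stretch, and a highest signal of 15.2. In all, 5 stretches of more than 50 kb without a member summed to 743.5 kb, or 55.15% of the chromosome, and contained 49 genes. Replicate 1 had 181 entries in them, or 243 per Mb, against 309 per Mb in the rest of the chromosome. Replicate 2 had 15, or 20.2 per Mb, against 185 per Mb in the rest. The stretches were defined from the combined list, which draws on both replicates, so these counts are a description.

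By gene, 22 of the 80 protein-coding genes of chromosome 4 had a member in the body or within 500 bp of a start. Replicate 1 alone had entries at 61 genes and replicate 2 at 20. All 20 genes of replicate 2 were among those of replicate 1, a further 41 were in replicate 1 only, and 19 were in neither. Genes with a member had a median length of 16.8 kb, against 9.2 kb for the other 58.

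**Figure D4:**
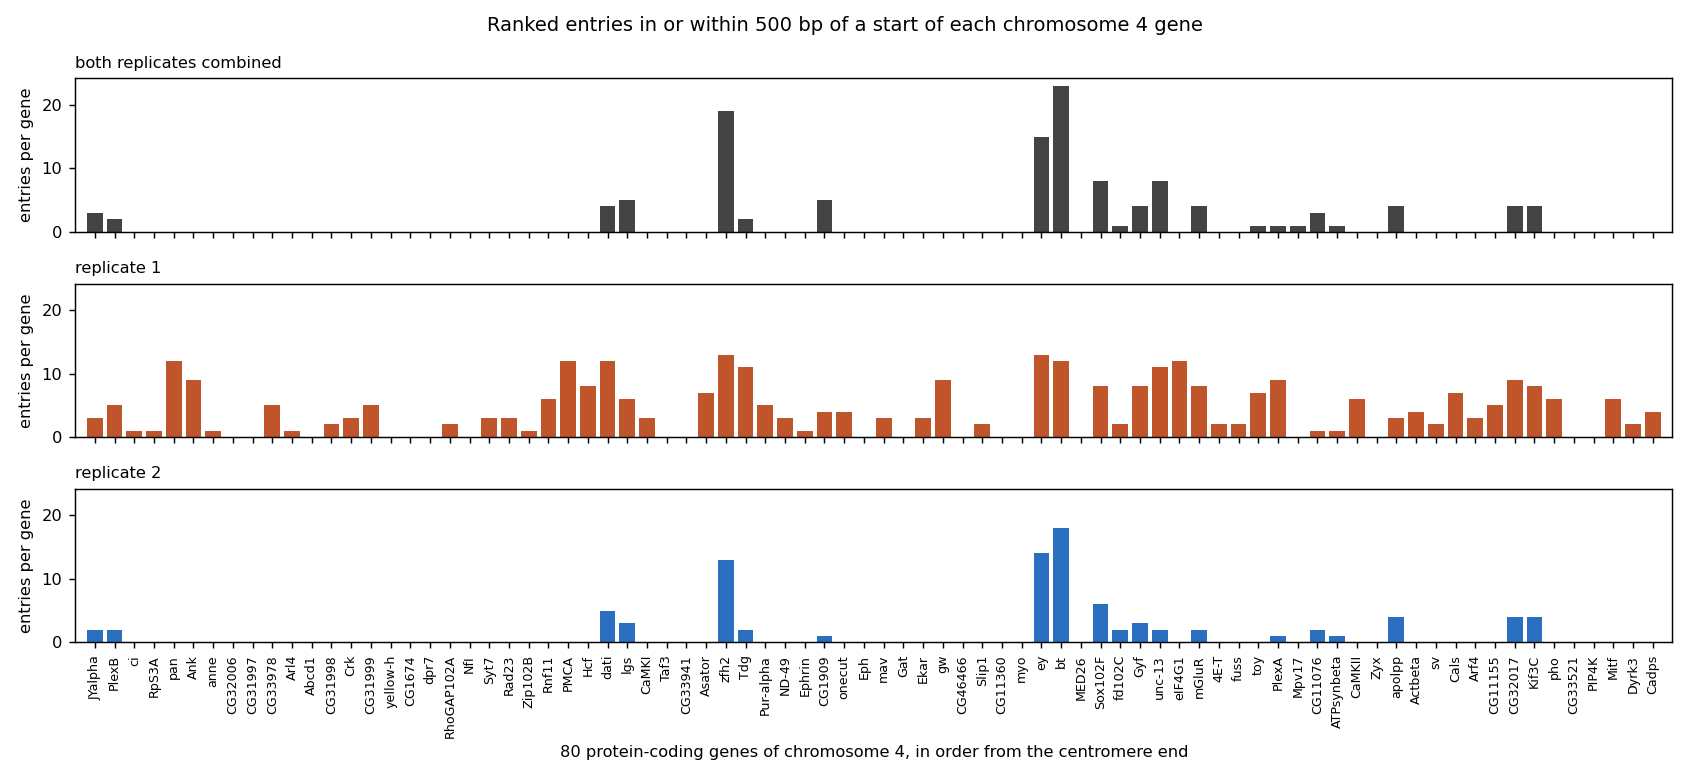
Entries in or within 500 bp of a start of each of the 80 protein-coding genes of chromosome 4 (y axis, number), in chromosomal order from the centromere end (x axis), for the combined list, replicate 1 and replicate 2 from top to bottom. The upper and lower panels are empty over long runs of genes that carry entries in replicate 1, and bt, zfh2 and ey hold the most members.

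The 3 long genes bt, zfh2 and ey carried 57 of the 156 members. The gene bt, which encodes the giant muscle protein projectin, had 23 in its 52.1 kb, with signals from 7.27 to 30.2 and a median of 13.8. Of these, 19 lay in coding exons; 6 overlapped replicate 1 entries and 13 replicate 2 entries. The gene zfh2 had 19, with signals from 6.51 to 29.6; 14 lay in introns, 9 overlapped replicate 1 and 10 replicate 2. Its promoter member had 12.9 in replicate 1, 16.9 in replicate 2 and 29.6 combined. The gene ey had 15, with signals from 10.01 to 26.6; 10 lay in introns, 10 overlapped replicate 1 and 8 replicate 2. Sox102F and unc-13 followed with 8 members each.

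The counts by gene list stand beside 22 of all 80 protein-coding genes (27.5%) with a member. Median gene length was 10.1 kb over all 80 genes and 18.2 kb for the transcription factors and cofactors. It was 12.2 kb for neuronal signalling, 6.42 kb for growth factors and RNA, and 18.3 kb for muscle. Of 15 transcription factor and cofactor genes, 7 had a member: ey, toy, lgs, zfh2, Sox102F, fd102C and dati. Replicate 1 had entries at 14 of the 15, and replicate 2 at 6. The single member of toy, in an intron and an INE-1 repeat, had 14.4 in replicate 1, 24.3 combined and no counterpart in replicate 2. The other 8 had no member: ci had 1 replicate 1 entry of 14.2, and pan, the TCF factor of Wnt signalling, had 12 with a highest of 26.8 at its promoter. The highest replicate 1 entry was 11.3 at onecut, 14.4 at pho, which encodes a Polycomb recruiter, 17.4 at Mitf, 19.0 at Hcf and 30.7 at sv, while NfI had none. None of these 8 had a replicate 2 entry.

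Of 10 genes of neuronal signalling and adhesion, 4 had a member: PlexA, PlexB, unc-13 and the metabotropic glutamate receptor gene mGluR, whose highest was 14.8. Replicate 1 had entries at 9 and replicate 2 at the same 4. The genes without a member were the axon guidance pair Eph and Ephrin, the exocytosis genes Syt7 and Cadps, CaMKI and the glutamate receptor gene Ekar. Their highest replicate 1 entries were 12.5 at Ephrin, 22.4 at Syt7, 22.8 at Cadps, 13.04 at CaMKI and 19.5 at Ekar, and Eph had none.

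Of 10 genes for growth factors, RNA and basic functions, 2 had a member, ATPsynbeta and the thymine DNA glycosylase gene Tdg, whose highest was 19.9. Replicate 1 had entries at 9 of the 10 and replicate 2 at 2. At the promoter of the ribosomal protein gene RpS3A replicate 1 had an entry of 29.3, at gw, a gene of microRNA silencing, 24.2, and at the repair gene Rad23 18.02. No entry of replicate 2 lay at these 3 promoters. The highest replicate 1 entry was 34.9 at Asator, 24.1 at Crk, 15.7 at eIF4G1 and 8.30 at the activin ligand gene Actbeta, and myo had none. Of 4 muscle and cytoskeleton genes, bt and Kif3C had members. The 4 members counted for Kif3C had intron summits inside transposable elements, and all also lay in CG32017, an overlapping gene on the other strand. Ank had 9 replicate 1 entries and Zyx none.

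Genes with a promoter entry numbered 11 in the combined list, 38 in replicate 1 and 10 in replicate 2. Of these, 9 were common to both replicates, 29 were in replicate 1 only and 1 was in replicate 2 only.

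By annotation, 18 of the 156 summits lay at promoters (11.5%, interval 6.98 to 17.6), against 10.9% of the bases of chromosome 4. On the large arms 18.1% of summits lay at promoters, against 13.6% of bases. At the centromere ends of the large arms the share was 5.15%, so there the direction of the difference turned. In replicate 1 the promoter share was 17.7% on chromosome 4, against 22.3% on the large arms, and in replicate 2 it was 11.8%, against 16.6%. Coding exons held 52 members (33.3%, interval 25.998 to 41.3), against 18.2% of bases, and on the large arms 21.3% of summits, against 13.1% of bases. Introns held 43 members (27.6%, interval 20.7 to 35.3), against 41.9% of bases. The 3′ UTRs held 2 members (1.28%, interval 0.156 to 4.55), against 8.07% of bases; replicate 1 had 28 summits (7.61%) there and replicate 2 had 0. Intergenic sequence held 36 members (23.1%), against 18.4% of bases, with 11.96% in replicate 1 and 31.5% in replicate 2.

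**Figure D5:**
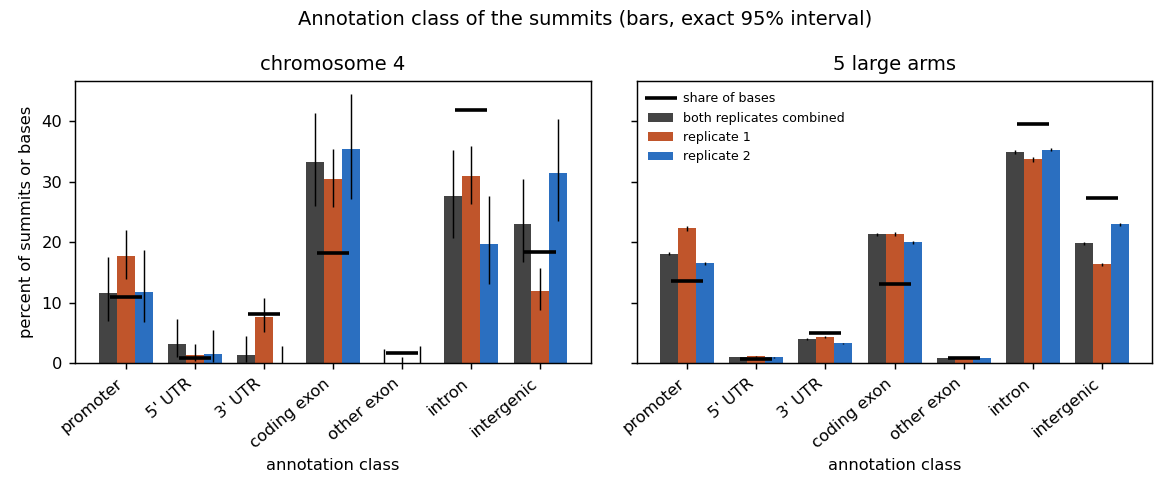
Share of summits in each annotation class (y axis, percent; bars with exact 95% intervals) on chromosome 4 and on the large arms, for the combined list, replicate 1 and replicate 2, with the share of bases as black lines. Coding exons stand above their base share in every list, and replicate 1 differs from replicate 2 most in 3′ UTRs, introns and intergenic sequence of chromosome 4.

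Transposable elements make up 25.1% of chromosome 4, against 4.05% to 7.75% of the large arms. They held 20 members (12.8%, interval 8.01 to 19.1), against 0.396% to 1.44% of entries on the large arms. The share on chromosome 4 was 14.4% in replicate 1 (interval 10.98 to 18.4), 22.8% in replicate 2 (interval 15.9 to 31.1) and 22.3% in the pooled list (interval 17.3 to 27.9). The intervals of replicate 2 and of the pooled list include the share of bases, and those of replicate 1 and of the combined list lie below it. The short INE-1 repeats, 7.22% of the chromosome, held 9 members (5.77%), of which 4 lie in a patch of R1A1 sequence, and 1360 elements, 3.79% of it, held 1. That patch, annotated both as INE-1 and as the ribosomal DNA retroelement R1A1, held these 4 members with signals from 9.92 to 19.9. The telomeric retroelement HeT-A, 3.28% of chromosome 4, held 14 of the 127 replicate 2 entries, 1 of the 368 replicate 1 entries and 1 member. That member had 19.9 in replicate 1, 4.40 in replicate 2 and 23.7 combined. Repeats share sequence, so an entry in one cannot be assigned to a single copy with certainty.

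In the summits with 50 bases on either side, G and C content averaged 42.7% ± 8.70 over the 156 members (SD over entries), against 35.2% for the chromosome. On the large arms the means were 46.5% to 47.7%, against 41.6% to 42.6% for the arms, so members stood 7.43 percentage points above their chromosome and entries of the arms 4.64 to 5.12. Replicate 1 entries averaged 39.9% on chromosome 4, 4.60 points above the chromosome, against 4.02 to 4.65 on the large arms. Replicate 2 entries averaged 44.0%, 8.79 points above the chromosome, against 5.09 to 5.57 on the large arms. The larger rise was thus seen in the combined list and replicate 2, and not in replicate 1. Of 5 words searched on both strands, GAGAG was in 11.5% of the member windows, against 9.25% of all chromosome 4 windows. TATCGA was in 4.49%, against 5.41%, and ATCGAT, which overlaps it, in 0.641%, against 4.03%. The A and T words ATTTTA and TTAAAA were in 16.7% and 13.5% of the member windows, against 24.9% and 28.2% of all windows of the chromosome. In replicate 1, TATCGA was in 7.61% and ATCGAT in 4.35% of the chromosome 4 windows, and in replicate 2 in 6.30% and 1.57%. TATCGA was thus above its share of all windows in each replicate and below it in the combined list, and all 3 of its intervals include that share.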

How the data were processed

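Deposited peak lists on dm6 were used; per the deposited README texts the alignments of the replicates, among other inputs, went into them. For aligner and peak caller, names and settings were not given in the sources used here. Among the authors' deposited columns are a signal value per peak, a score (scaled IDR, at most 1000) and IDR as -log10, which ends at 5; signal was used only to describe and rank within a list, and the ratios between replicates compare values that are not scaled to each other. The labels' antibody field names cas, whereas their description gives an antibody against GFP.

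The combined ranked list was the one that contains all 1880 conservative thresholded peaks; the pooled list contains 1879. Summits were classed with Ensembl release 115 (BDGP6.54) with promoters (500 bp) taking precedence, then UTRs (5′ before 3′), coding and other exons, introns, and last intergenic sequence. Bases with called sequence gave densities and base shares. Overlap required 1 bp. Y and other contigs were counted only. Transposable elements were an overlay. Sequences came from RefSeq Release 6. No test between samples exists for 1 group of 2; shares have exact Clopper-Pearson 95% intervals, and entries are not replicates. Read totals are not in the lists, so depth is unknown. Named genes were those of the 15 strongest members and of thresholded peaks, the members of 4 gene lists, and cas. Members, gene lists and words were chosen with earlier results of these data known. The gene lists were matched by symbol, 2 of them (Cadps, Tdg) through an older name. Python 3.11.15, numpy 2.4.6, pandas 2.3.3, scipy 1.17.1 and matplotlib 3.10.9 were used, and the counting was tested on simulated lists.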

Additional observations from a re-analysis of the deposited data

How the results depend on the processing

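Of 48 recomputed values over 9 results, 30 stayed within the spread of the replicates, their interval or 1.5 times the count, and 18 moved beyond it. Each spread is an SD of only 2 values, so these counts depend on how close the 2 lay. For the promoter share it was 0.0986 percentage points, and every recomputed value moved, however small the change. For sharing it was 30.7 points. That SD came from the 2 directions of overlap and is not a spread between replicates, and only the reversed direction moved. The ratio of entry density on chromosome 4 to the large arms, 0.149, ranged from 0.143 (without replicate 1) to 0.631 (without replicate 2), and was 0.716 against the centromere ends. Among the upper 20000 entries, an alternative chosen after seeing the data, it ranged from 0.187 to 0.626 in single replicates. The median signal ratio, 1.00, ranged from 0.968 to 1.10 in single replicates, with 1.11 in the pooled list and 1.22 against the centromere ends. The promoter share of chromosome 4 minus that of the large arms, -6.55 percentage points, was -3.44 in the pooled list, between -4.75 and -4.61 in single replicates, -6.21 over distinct pairs of peaks, -6.83 without the first 100 kb, -3.61 with a 200 bp and -11.9 with a 1000 bp window, and changed sign to 6.39 against the centromere ends. The G and C difference, -4.38 points, ranged from -6.71 to -3.44 in single replicates. Sharing from replicate 1 into 2, -46.0 points against the large arms, was -2.65 from replicate 2 into 1, also added after seeing the data. The share past the IDR threshold, 0.344 times that of the large arms, was within its interval under every alternative run but lay above 1 without replicate 1 (1.16) and in the pooled list (1.08); against the centromere ends it had no value, since 0 combined entries passed there. Of the 15 strongest members, 13 were in the upper 10% of the combined list, and between 5 (without replicate 1) and 9 (without replicate 2) had an overlapping entry in the upper 10% of a single replicate. Of the genes in the 4 lists, 15 had a member, and between 14 (without replicate 1) and 35 (without replicate 2) had an entry in a single replicate. Bins of 100 kb with an entry numbered 10, and 11 to 14 in single replicates, added after seeing the data. No paired analysis was possible because 1 group gives no groups to pair. The causes of these differences between the replicates were not tested. The depth of the lists is unknown, and counts of 1 to 5 thresholded entries limit what can be detected on this chromosome.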
